A study of Mus musculus with 12 samples.

Results

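The genes for the constant regions of the immunoglobulin heavy chains (Ighm, Ighd, Ighg3, Ighg1, Ighg2b, Ighg2c, Ighe and Igha), for the kappa light chain (Igkc) and for the J chain (Jchain) were examined in sorted megakaryocytes (MKs). These 10 genes were taken by symbol and matched to their Ensembl identifiers, and all 10 were among the 55536 genes of the count table. MKs came from the bone marrow (BM) and spleen of Pf4-TdTomato mice, C57BL/6 animals in which a Cre recombinase under the Pf4 promoter, a promoter of the MK lineage, switches on the red protein tdTomato. Male and female young adults received saline or a cecal slurry that causes sepsis, and cells were taken on day 5. The 4 groups were BM MKs after saline, BM MKs after sepsis, splenic MKs after saline and splenic MKs after sepsis, with 3 libraries in each. Every group carried the same reporter alleles, and a library held the RNA of 300 cells that were positive for CD45, tdTomato, CD41 and CD42b and negative for lineage markers. The study describes its gate as also negative for the plasma cell protein CD138.

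An antibody is built of paired heavy and light chains. A naive B cell reads the constant genes Ighm and Ighd together and shows IgM and IgD on its surface, while an activated B cell can cut out the DNA in between and join its variable region to a downstream constant gene, which gives IgG, IgE or IgA. That event, class switching, is inherited by the daughters of the cell, so that a clone of plasma cells usually makes 1 heavy chain class. A light chain is either kappa or lambda, and in mice most antibodies carry kappa. The J chain links IgM and IgA units into polymers and is made in antibody-secreting cells. None of these genes is part of the known program of MKs, which make platelets.

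The 8 heavy chain genes lay in 1 row on the minus strand of chromosome 12 in GRCm38, with the genes of switched classes downstream of Ighm and Ighd. Ighm came first at chr12:113418558-113422730, followed by Ighd at chr12:113406604-113416324. The IgG genes came next, with Ighg3 at chr12:113356224-113361232, Ighg1 at chr12:113325240-113330523, Ighg2b at chr12:113302965-113307933 and Ighg2c at chr12:113285325-113288932. Ighe at chr12:113269260-113273248 and Igha at chr12:113254830-113260236 closed the row. Igkc lay at chr6:70726435-70726966 on the plus strand and Jchain at chr5:88519809-88527891 on the minus strand. No exon of the 10 genes overlapped an exon of another annotated gene.

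The 4 IgG genes are close copies, so the first 60 bases of the coding strand of their first exons are given here to show how far reads can tell them apart. Capitals mark the 22 positions at which the 4 sequences are not all the same. They were read from GRCm38 on the minus strand, at chr12:113361173-113361232 for Ighg3, chr12:113330464-113330523 for Ighg1, chr12:113307874-113307933 for Ighg2b and chr12:113288873-113288932 for Ighg2c.
Ighg3: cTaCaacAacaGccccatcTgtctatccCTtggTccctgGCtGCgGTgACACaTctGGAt
Ighg1: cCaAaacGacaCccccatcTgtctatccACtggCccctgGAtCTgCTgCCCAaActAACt
Ighg2b: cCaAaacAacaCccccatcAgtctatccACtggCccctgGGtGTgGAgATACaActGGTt
Ighg2c: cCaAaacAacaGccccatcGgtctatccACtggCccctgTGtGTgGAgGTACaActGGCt
Over the 291 bases of the whole first exon, Ighg3 was 78.4% to 79.0% identical to each of the other 3, and those 3 were 87.6% to 88.3% identical to one another. Of all stretches of 50 bases in the annotated transcripts, 5.49% in Ighg2c, 4.15% in Ighg2b, 1.58% in Ighg3 and 0.393% in Ighg1 occurred unchanged in another gene, and none did in the other 6 genes. No stretch of 100 bases was shared. The counts of the IgG genes carry this uncertainty, since how reads that match several genes were counted is not given in the sources used here.

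Total counts were between 7756762 and 27386184 per library. Values are given as CPM, the count of a gene relative to all counts of its library, scaled with trimmed-mean (TMM) factors, and where a library had no count of a gene the floor was set at 3 counts, or 0.1053 to 0.4055 CPM. Immunoglobulin genes and Jchain together took 13.7% to 35.24% of all counts in the splenic libraries and 1.229% to 4.421% in the BM libraries. The labelled cell type was checked against MK genes. Pf4, the platelet chemokine that drives the reporter, was at 9606 to 30580 CPM in the 6 BM libraries and at 476 to 2439 CPM in the 6 splenic libraries. Itga2b, the gene of CD41, was at 156.1 to 435.2 CPM and at 6.426 to 320.5 CPM. All 10 MK genes examined were detected. None had a positive log2 difference for splenic over BM MKs in either comparison, with medians of -3.07 after saline and -2.59 after sepsis. By the test described below, 4 were called lower in splenic MKs after saline and 3 after sepsis, against 0.523% and 0.597% of all genes tested. In bulk RNA, fewer cells of a type and less RNA per cell cannot be told apart. Tests on single genes are edgeR quasi-likelihood tests with Benjamini-Hochberg adjustment over the 20263 genes that passed the filter on low counts, and genes with an adjusted p under 0.05 were called. Of the 10 genes, 9 passed that filter and Ighe did not.

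IgM heavy chain, IgD heavy chain, kappa light chain and J chain transcripts were all far higher in splenic MKs than in BM MKs, after saline and after sepsis. Ighm rose 62.4-fold after saline and 98.4-fold after sepsis, and Igkc, the most abundant of the 10 genes per kilobase of exon, rose 13.0-fold and 18.3-fold. None of the genes of switched antibodies that could be tested was called in both comparisons. Of the 9 genes tested, 4 were called higher in splenic MKs after saline, where 0.725% of all genes tested were called higher and 0.523% lower, and 5 after sepsis, where these shares were 1.18% and 0.597%.

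**Figure D1:**
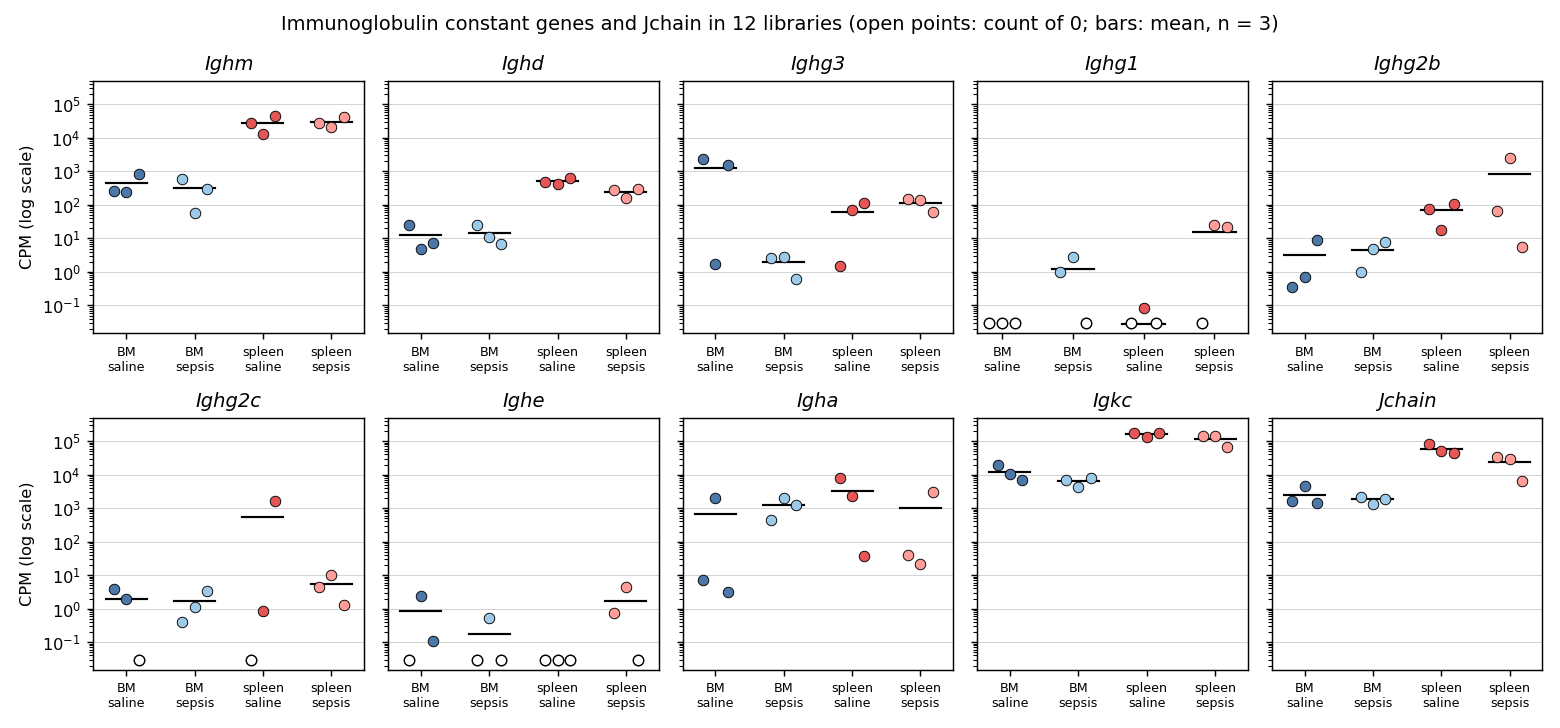
Level of each of the 10 genes in CPM on a log scale, by group, with 1 point for each library, a bar at the mean of 3 libraries, and open points near the bottom for a count of 0. Ighm, Ighd, Igkc and Jchain form separate bands for BM and spleen, while Ighg3, Ighg2b, Ighg2c and Igha have single libraries that stand far above others of their group.

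Ighm, the heavy chain of IgM, was at 267.5, 238.8 and 848.4 CPM in BM MKs after saline and at 583.9, 57.22 and 299.4 CPM after sepsis. The splenic level was 27140, 13310 and 44070 CPM after saline and 27340, 21660 and 43520 CPM after sepsis. Every splenic library thus lay above every BM library. In edgeR the log2 difference between tissues after saline was 5.96 (SE 0.80, adjusted p = 0.000859), and after sepsis it was 6.62 (SE 0.82, adjusted p = 0.000184).

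Ighd, the heavy chain of IgD, is spliced from the same long transcript as Ighm and marks naive B cells. Its level was 25.61, 4.97 and 7.323 CPM in BM MKs after saline and 24.39, 11.31 and 6.771 CPM after sepsis. The splenic level was 471.8, 407.8 and 640.6 CPM after saline and 276.1, 157.8 and 295.8 CPM after sepsis. No splenic library fell into the range of BM, and the 3 splenic libraries after sepsis were all below the 3 after saline. Between tissues, the log2 difference after saline was 5.32 (SE 0.75, adjusted p = 0.00121 in edgeR), and after sepsis it was 4.10 (SE 0.71, adjusted p = 0.00363). Per kilobase, Ighm exceeded Ighd 57.94-, 32.89- and 69.32-fold in splenic MKs after saline and 99.76-, 138.3- and 148.2-fold after sepsis, and from 5.098-fold to 116.7-fold across the BM libraries.

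Igkc, the constant gene of the kappa light chain, was at 19600, 10530 and 6857 CPM in BM MKs after saline and at 7152, 4140 and 8024 CPM after sepsis. In splenic MKs it was at 169700, 133300 and 178800 CPM after saline and at 139400, 145700 and 67540 CPM after sepsis. It was abundant in every BM library, and the lowest splenic library, replicate 3 after sepsis, was still above all of them. Between tissues, the log2 difference after saline was 3.70 (SE 0.46, adjusted p = 0.00053 in edgeR), and after sepsis it was 4.19 (SE 0.47, adjusted p = 8.2e-05).

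Jchain was at 1629, 4603 and 1399 CPM in BM MKs after saline and at 2185, 1344 and 1936 CPM after sepsis. The splenic level was 80010, 50860 and 45640 CPM after saline and 33990, 29610 and 6552 CPM after sepsis. The tissues again did not overlap, and replicate 3 after sepsis was the lowest splenic library by a wide margin. Between tissues, the log2 difference after saline was 4.53 (SE 0.62, adjusted p = 0.000886 in edgeR), and after sepsis it was 3.68 (SE 0.59, adjusted p = 0.00182).

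These 4 genes were called in each of the 12 fits that left out 1 library. With limma-voom and sample quality weights only Ighd and Igkc were called in both comparisons, and the adjusted p in voom was 0.277 and 0.158 for Ighm and 0.138 and 0.0786 for Jchain, with log2 differences of 5.84, 6.73, 4.73 and 3.98.

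Counting the genes without overlap, those with each splenic library above each BM library, gave 5 of 9 after saline (Ighm, Ighd, Igkc, Jchain and Ighg2b), against 7% of all genes tested. After sepsis it gave 5 of 9 as well, with Ighg3 in the place of Ighg2b, against 7.02% of all genes tested. The median log2 difference of the 9 genes was 4.38 after saline and 4.10 after sepsis, beside medians of 0.28 and 0.18 over all genes tested.

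**Figure D2:**
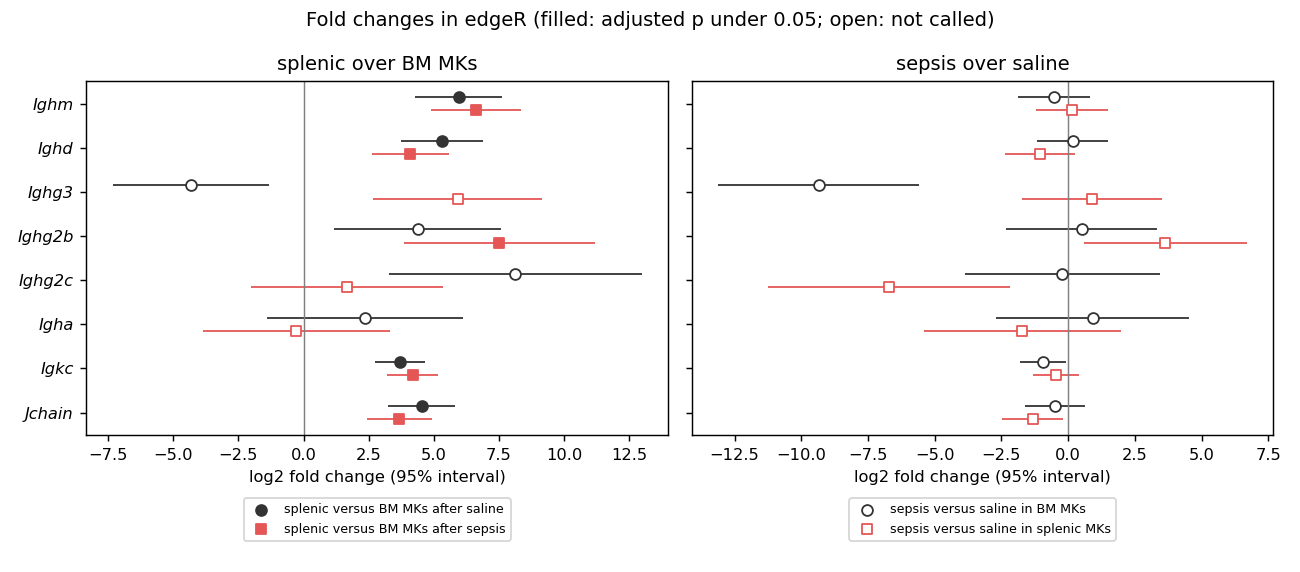
Log2 fold change with its 95% interval for 8 of the 10 genes in edgeR, for splenic over BM MKs on the left and sepsis over saline on the right, with filled points for genes called at an adjusted p under 0.05 and open points for the rest. Ighm, Ighd, Igkc and Jchain are filled in both tissue comparisons with narrow intervals, the switched heavy chain genes have wide intervals with only Ighg2b after sepsis filled, and no gene is filled for sepsis over saline. Ighg1 and Ighe are left out because of their low counts.

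The genes of switched isotypes varied widely between libraries, in most cases within a group. Igha, the heavy chain of IgA, which dominates at mucosal surfaces, was at 7.046, 1962 and 3.123 CPM in BM MKs after saline and at 454.1, 1981 and 1277 CPM after sepsis. The splenic level was 7703, 2343 and 37.76 CPM after saline and 39.12, 21.18 and 2996 CPM after sepsis. It reached 100 CPM in 7 of the 12 libraries, in both tissues and after both treatments, and the remaining 5 libraries lay between 3.123 and 39.12 CPM. Between tissues, the log2 difference after saline was 2.35 (SE 1.80, adjusted p = 0.635 in edgeR), and after sepsis it was -0.28 (SE 1.72, adjusted p = 0.982), and neither was called. Without BM replicate 2 after saline the first became 9.27 and the gene was called, so 1 library decided that call.

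Ighg3, which mouse B cells use mainly against carbohydrate antigens, was at 2297, 1.69 and 1533 CPM in BM MKs after saline and at 2.543, 2.721 and 0.6315 CPM after sepsis. In splenic MKs it was at 1.487, 70.13 and 118.1 CPM after saline and at 152.4, 140.2 and 61.72 CPM after sepsis. BM replicates 1 and 3 after saline thus held 99.8% of the Ighg3 of the 6 BM libraries. For splenic over BM MKs the log2 difference after saline was -4.34 (SE 1.43, adjusted p = 0.198 in edgeR), and after sepsis it was 5.92 (SE 1.55, adjusted p = 0.0595). Neither passed the threshold, although after sepsis the 3 splenic libraries were all above the 3 BM libraries. The gene was called there in each of the 12 fits that left out 1 library and in DESeq2 (adjusted p = 0.00275). After saline it was called in 6 of those 12 fits. With limma-voom and sample quality weights the adjusted p of Ighg3 was 0.5555 after sepsis and 0.809 after saline.

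Ighg2b was at 0.3437, 0.6958 and 8.83 CPM in BM MKs after saline and at 0.978, 4.932 and 7.999 CPM after sepsis. The splenic level was 77.44, 18.15 and 109.4 CPM after saline and 66.88, 2477 and 5.435 CPM after sepsis. Replicate 2 after sepsis alone held 89.93% of the Ighg2b of the 6 splenic libraries. Ighg2b was called higher in splenic MKs after sepsis, with a log2 difference of 7.51 (SE 1.76, adjusted p = 0.0288) in edgeR, yet the libraries of the tissues overlapped. Without that library the log2 difference was 2.94 with an adjusted p of 0.427. With all libraries in limma-voom with sample quality weights it was 5.69 with an adjusted p of 0.2207, and the gene was not called. After saline, where all 3 splenic libraries were above all 3 BM libraries, the log2 difference was 4.38 (SE 1.53, adjusted p = 0.241) and the gene was not called, though it was in 6 of the 12 fits without 1 library.

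Ighg2c, the form of the IgG2a gene found in C57BL/6 mice, was at 3.867, 1.889 and 0 CPM in BM MKs after saline and at 0.3912, 1.105 and 3.403 CPM after sepsis. The splenic level was 0, 0.825 and 1639 CPM after saline and 4.421, 10.08 and 1.262 CPM after sepsis. A single library, splenic replicate 3 after saline, held 99.0% of the splenic total, and the other 11 libraries lay between 0 and 10.08 CPM. The log2 difference between tissues after saline was 8.14 (SE 2.31, adjusted p = 0.11) in edgeR with that library and -2.23 (adjusted p = 0.762) without it. The gene was called in 10 of the 12 fits without 1 library.

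Ighg1 and Ighe were low in every group. Ighg1 had counts of 0, 0 and 0 in BM MKs after saline, 15, 32 and 0 in BM MKs after sepsis, 0, 1 and 0 in splenic MKs after saline, and 0, 224 and 230 in splenic MKs after sepsis. The last 2 of these, at 25.1 and 22.32 CPM, were the only libraries above 3 CPM. Ighe, the heavy chain of IgE, had counts of 0, 24 and 1 in BM MKs after saline, 0, 6 and 0 in BM MKs after sepsis, 0 in all 3 splenic libraries after saline, and 14, 39 and 0 in splenic MKs after sepsis. Neither gene allowed a fold change after saline, since Ighg1 was at or under the floor in both tissues and Ighe was not tested.

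For comparison with the other genes, the share of a tissue's summed CPM found in its highest library was taken. It was 24.9% for Ighm, 28.47% for Ighd, 21.43% for Igkc, 32.44% for Jchain and 58.63% for Igha in the spleen, with an equal split over 6 libraries as the lowest possible value. The median was 27.73% over the 1480 genes with a mean of at least 100 CPM in the spleen and 50.73% over all genes tested there. Ighm, Ighd and Igkc were thus close to or below the median of other abundant genes in the spleen, Jchain was somewhat above it, and Ighg2b and Ighg2c, at the shares given above, were far above it. In BM the highest library held 36.96% of Ighm, 34.81% of Igkc and 35.15% of Jchain, all above the median of 22.3% over the 1468 genes with a mean of at least 100 CPM there.

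The heavy chain classes were also set against one another within each library, as shares of the summed heavy chain counts per kilobase of exon, so that the total amount of immunoglobulin does not enter. Ighm made up 81.97%, 86.22% and 93.31% of heavy chain transcripts in splenic MKs after saline and 98.31%, 91.32% and 94.61% after sepsis. In BM MKs it made up 13.19%, 14.57% and 42.1% after saline and 62.58%, 3.871% and 24.55% after sepsis. Every splenic library was thus above every BM library. The mean was 91.0% ± 5.94 (SD, n = 6) in the spleen and 26.8% ± 21.8 (SD, n = 6) in BM, a difference of 64.15 percentage points (two-sided exact permutation test within treatments, 400 arrangements, p = 0.005, adjusted p = 0.0175 over 7 quantities). This p is the smallest that the design allows.

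The rest of the BM heavy chain signal was IgG or IgA, and which of them led differed between libraries. The 4 IgG genes made up 85.31%, 0.2713% and 57.42% in BM MKs after saline and 0.4144%, 0.6134% and 0.8975% after sepsis. Igha made up 0.2456%, 84.68% and 0.1096% after saline and 34.41%, 94.72% and 74.01% after sepsis. The leading heavy chain gene was therefore Ighg3 in BM replicates 1 and 3 after saline, Igha in BM replicate 2 after saline and in BM replicates 2 and 3 after sepsis, and Ighm in BM replicate 1 after sepsis and in all 6 splenic libraries. In the spleen, Igha made up 16.45%, 10.73% and 0.05651% after saline and 0.09943%, 0.06313% and 4.603% after sepsis, and IgG between 0.1483% and 7.937%.

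The mean share of Igha fell by 42.69 percentage points from BM to spleen, with p = 0.04 in the exact permutation test and an adjusted p of 0.0933, and that of IgG fell by 21.73 points with an adjusted p of 0.448. Neither passed the threshold. The difference for IgG was -12.31 points without BM replicate 1 after saline and -33.58 points without BM replicate 2 after saline. Without BM replicate 1 or 3 after saline the adjusted p for Igha was 0.0467 in the same exact test. With log2 odds of the counts, 3 counts added, it was 0.2125, adjusted over the heavy chain classes alone. Ighd made up 1.28% ± 0.74 (SD, n = 6) in the spleen and 0.97% ± 0.867 (SD, n = 6) in BM (exact permutation test, adjusted p = 0.618). Ighe did not exceed 0.1733% in any library.

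**Figure D3:**
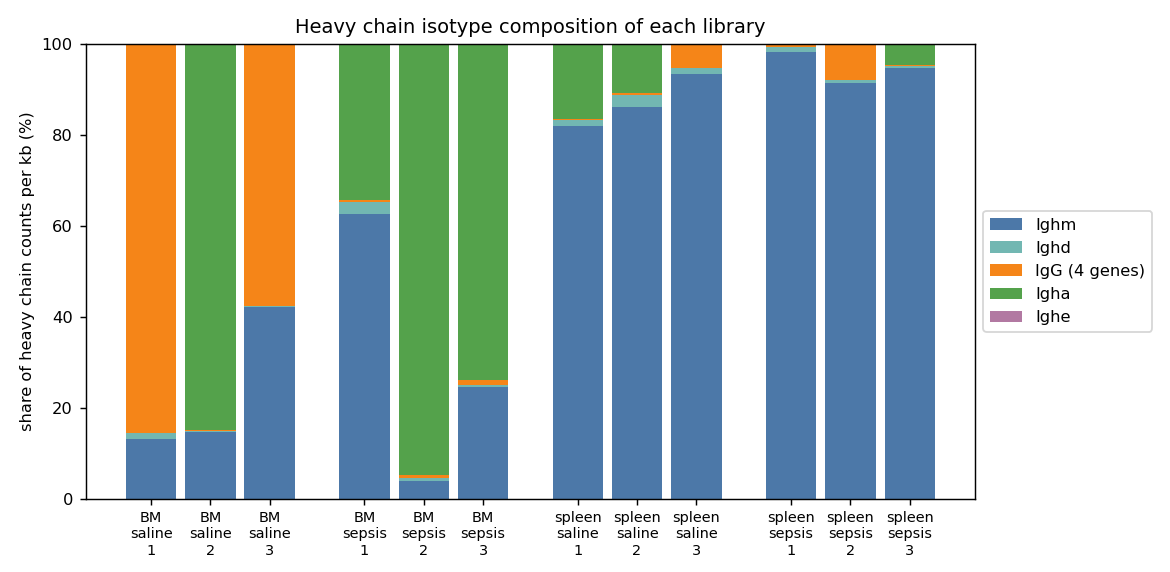
Share of heavy chain counts per kilobase (%) taken by Ighm, Ighd, the 4 IgG genes, Igha and Ighe in each of the 12 libraries, as stacked bars. Ighm takes 81.97% to 98.31% of the bar in the 6 splenic libraries, while the BM bars are led by IgG in 2 libraries, Igha in 3 and Ighm in 1.

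Within IgG, most libraries with appreciable counts read mainly 1 of the 4 genes. Ighg3 made up 99.67% of IgG counts per kilobase in BM replicate 1 after saline, from 26784 IgG counts, and 99.46% in BM replicate 3 after saline, from 14316 counts. In splenic MKs after saline the leading gene was Ighg2b in replicate 1 (97.99% of 584 counts), Ighg3 in replicate 2 (78.98% of 1081 counts) and Ighg2c in replicate 3 (93.36% of 17403 counts). All 3 libraries of this group thus had a different leading gene.

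After sepsis, splenic replicate 2 was led by Ighg2b (92.68% of 23670 counts), and splenic replicates 1 and 3 were led by Ighg3 (68.18% of 4351 counts and 67.94% of 935 counts). Splenic replicate 3 also held 23.81% Ighg1, the highest share of this gene among libraries with more than 400 IgG counts. The remaining 4 BM libraries had 43 to 343 IgG counts each and were mixed. The lead was the same by raw counts without division by length in all 12 libraries. The capitals in the sequences given above mark positions at which the 4 genes differ within the printed stretch only. Bases outside that stretch also separate them.

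**Figure D4:**
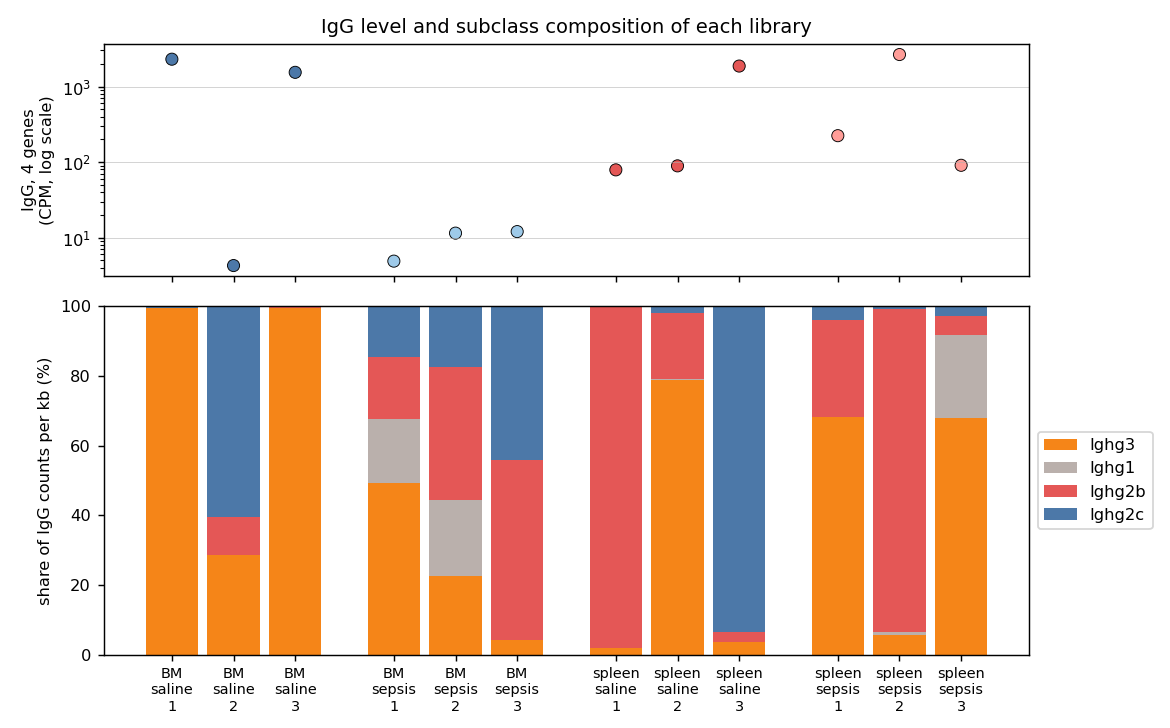
Summed level of the 4 IgG genes in CPM on a log scale (top) and the share of each in IgG counts per kilobase in % (bottom) for the 12 libraries. The 4 libraries with the highest IgG level are almost filled by 1 gene each, Ighg3 in 2 BM libraries, Ighg2c in 1 splenic library and Ighg2b in another, while the 4 BM libraries with under 400 IgG counts are mixed.

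Each clone of B cells also chooses 1 heavy chain variable segment, and the leading segment of every library was taken as a share of the counts over all Ighv segments. In BM MKs after saline Ighv4-1 took 90.81% in replicate 1 and 73.92% in replicate 3, the libraries led by Ighg3, and Ighv3-5 took 71.75% in replicate 2, which was led by Igha. In BM MKs after sepsis the leading segment took 55.23%, 45.9% and 41.5%. It took 27.13% to 52.29% in the splenic libraries, with 29.29% in the library led by Ighg2c among IgG genes and 36.22% in the one led by Ighg2b after sepsis. Ighv4-1 also led in splenic replicate 3 after saline (29.29%) and in splenic replicates 1 and 3 after sepsis (27.13% and 52.29%). Its lead was therefore not particular to the BM libraries led by Ighg3. In the share of the leading segment, the BM libraries after saline were above all others, while those after sepsis overlapped the spleen.

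Light chains were more mixed in the spleen. Igkc, set against the lambda constant genes Iglc1, Iglc2 and Iglc3 per kilobase, made up 97.86%, 92.06% and 93.73% of light chain transcripts in BM MKs after saline and 95.37%, 97.31% and 92.18% after sepsis. In splenic MKs the kappa share was 68.8%, 81.85% and 80.36% after saline and 68.84%, 65.67% and 87.76% after sepsis. No splenic library reached the lowest BM library. The mean was 75.5% ± 8.94 (SD, n = 6) in the spleen and 94.8% ± 2.51 (SD, n = 6) in BM, a difference of -19.21 percentage points (exact permutation test within treatments, p = 0.005, adjusted p = 0.0175).

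All 3 lambda genes were called higher in splenic MKs in edgeR, with log2 differences between tissues of 7.39, 5.32 and 5.64 after saline and 6.85, 7.48 and 6.51 after sepsis for Iglc1, Iglc2 and Iglc3. Iglc1 was at 71.84, 264.1 and 168.6 CPM in BM MKs after saline and at 92.46, 9.523 and 496.2 CPM after sepsis. The spleen held it at 60070, 19510 and 5058 CPM after saline and at 25270, 38710 and 5204 CPM after sepsis. The highest library, splenic replicate 1 after saline, was the one in which Iglc1 made up 91.49% of lambda transcripts. Iglc2 and Iglc3 share part of their sequence with other genes (7.65% and 10.7% of stretches of 50 bases), so the split between them is uncertain.

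J chain transcripts were also set against those of the heavy chains. The ratio of Jchain to all heavy chain genes per kilobase was 0.6017, 2.105 and 0.5203 in BM MKs after saline and 1.755, 0.6811 and 1.189 after sepsis. In splenic MKs it was 1.811, 2.468 and 0.724 after saline and 0.9159, 0.9355 and 0.1067 after sepsis. The tissues overlapped, and splenic replicate 3 after sepsis was far below all other libraries. The mean log2 ratio was -0.29 ± 1.59 (SD, n = 6) in the spleen and -0.02 ± 0.85 (SD, n = 6) in BM, a difference of -0.28 (exact permutation test, adjusted p = 0.74). Light chain transcripts exceeded heavy chain transcripts per kilobase in every library, from 5.931-fold in that splenic replicate to 37.39-fold in splenic replicate 2 after saline.

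**Figure D5:**
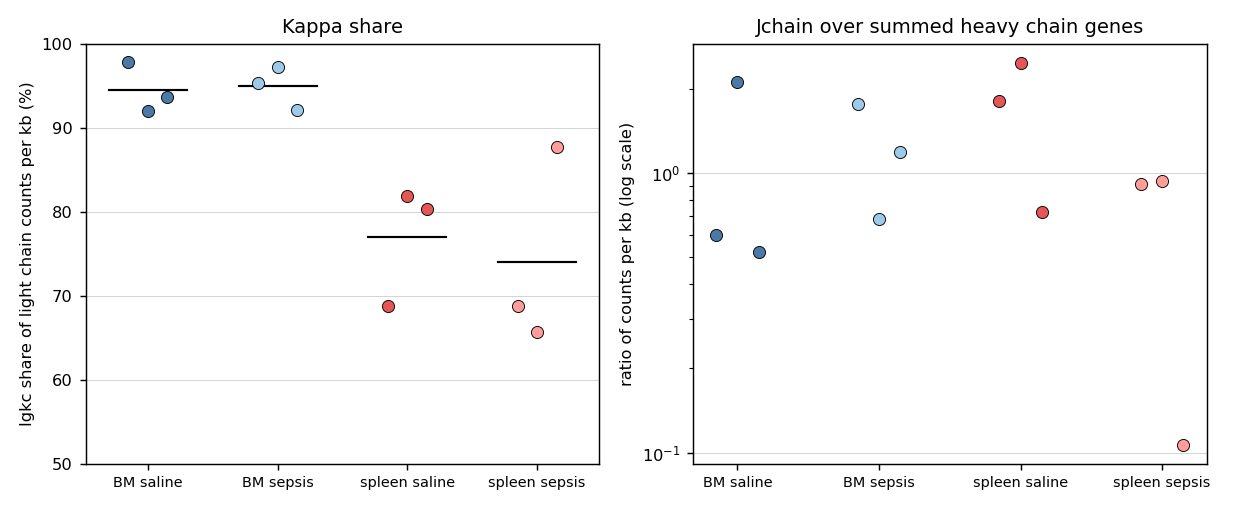
Left, share of Igkc in light chain counts per kilobase (%, axis from 50 to 100), with 1 point for each library and a bar at the mean of 3. Right, ratio of Jchain to the summed heavy chain genes per kilobase on a log scale. The kappa share is above 92% in all BM libraries and below 88% in all splenic libraries, while the J chain ratios of the tissues overlap and splenic replicate 3 after sepsis lies lowest at 0.1067.

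Sepsis moved none of the 9 genes tested past the threshold in either tissue. In BM, 0 of 9 genes were called, where 0% of all genes tested were called higher and 0% lower in edgeR. There 717 genes had an unadjusted p under 0.05. DESeq2 called 1 member among 208 genes called in all, and limma-voom called no member. The log2 change of Igkc was -0.94 (SE 0.42), of Ighm -0.53 (SE 0.65), of Jchain -0.48 (SE 0.53), of Igha 0.91 (SE 1.73) and of Ighd 0.16 (SE 0.63), with adjusted p of 1 for each. The libraries of the treatments overlapped for every one of the 9 genes. Without BM replicate 2 after saline the log2 change of Igha was 7.94 with an adjusted p of 0.0256.

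Ighg3 had the widest difference in BM, a log2 change of -9.35 (SE 1.79, adjusted p = 0.988 in edgeR). It was called by DESeq2 (adjusted p = 7.17e-07) and in 10 of the 12 fits without 1 library. Of the 3 BM libraries after saline, 2 carried it at 2297 and 1533 CPM, and the other one, at 1.69 CPM, lay within the range of the libraries after sepsis.

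In splenic MKs, 0 of 9 genes were called after sepsis, where 0.0592% of all genes tested were called higher and 0.0987% lower in edgeR. There 2649 genes had an unadjusted p under 0.05. DESeq2 called 1 member (Ighg1) among 995 genes called in all, and limma-voom called no member. All 3 sepsis libraries were below all 3 saline libraries for 2 of the 9 genes, Jchain and Ighd, against 4.51% of all genes tested. The log2 change of Jchain was -1.33 (SE 0.54, 95% interval -2.47 to -0.20, adjusted p = 0.381) and that of Ighd -1.06 (SE 0.63, adjusted p = 0.467). Without replicate 3 after sepsis the log2 change of Jchain was -0.85.

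Ighm and Igkc had log2 changes of 0.13 (SE 0.64, 95% interval -1.22 to 1.48) and -0.45 (SE 0.41, 95% interval -1.32 to 0.42) in splenic MKs. For Ighg2b the log2 change was 3.64 (SE 1.46) and for Ighg2c it was -6.70 (SE 2.17), each resting on the single library named above. Without these libraries the log2 changes were -0.85 and 3.68, of the opposite sign, and Ighg2c was called in 6 of the 12 fits that left out 1 library.

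No difference between the tissues in the effect of sepsis passed the threshold for the 9 genes in the interaction term. There 0% of all genes tested were called in edgeR, and 1556 had an unadjusted p under 0.05. DESeq2 called 1 member, Ighg3, among 495 genes called in all. In edgeR that gene had the largest interaction of the 9, at 10.25 on the log2 scale (SE 2.11, adjusted p = 0.234). It was called in 11 of the 12 fits without 1 library. With limma-voom and sample quality weights its adjusted p was 0.8777. Shares of isotypes, the kappa share and the J chain ratio did not pass the threshold between treatments either, with adjusted p between 0.831 and 0.85 in exact permutation tests within tissues.

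The genes that share the antibody pathway with these 10 were taken from fixed lists. Of 12 genes of the B cell receptor and of B cells, 10 were called higher in splenic MKs after saline and 10 after sepsis. Among all genes tested, 0.725% and 1.18% were called higher. All 12 had positive log2 differences in both comparisons, with medians of 4.57 and 6.46. Cd79a, the signaling partner of surface immunoglobulin, was at 6.122 to 84.98 CPM in the BM libraries and at 125.3 to 2829 CPM in the splenic libraries. Its partner Cd79b was at 23.21 to 120.6 CPM and at 897.6 to 3189 CPM. Both genes thus separated the tissues without overlap.

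Of 12 genes of plasma cells and antibody secretion, 5 were called higher in splenic MKs after saline and 7 after sepsis, against 0.725% and 1.18% of all genes tested. All 12 had positive log2 differences in both comparisons, with medians of 2.16 and 4.41. The genes called in both comparisons were Irf4, Mzb1, Derl3 and Pou2af1. Tnfrsf17 was called after saline only, and Creld2, Edem1 and Hsp90b1 after sepsis only. Xbp1, the factor that expands the secretory machinery, was at 80.12 to 206.1 CPM in BM and at 198.3 to 527.2 CPM in the spleen (log2 difference 1.70, adjusted p = 0.125 after saline and 1.67, adjusted p = 0.118 after sepsis in edgeR). Prdm1, the regulator of plasma cell fate, was at 0.08593 to 17.45 CPM and at 11.65 to 101.2 CPM (adjusted p = 0.454 and 0.213).

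The summed level of the 12 plasma cell genes in splenic MKs was 1283 to 3290 CPM after saline and 4668 to 7018 CPM after sepsis, so it was higher after sepsis in every library, while Jchain was lower in every library. Of the 12 genes, 11 had a positive log2 change in splenic MKs. Hsp90b1 added most to the rise, with means of 396.8 CPM after saline and 1909 CPM after sepsis. Tnfrsf17 went the other way, from 90.16 to 57.73 CPM. None of the 12 was called between treatments in either tissue. Over the 6 splenic libraries, Pearson's r of log2 values with that sum was -0.78 for Jchain and 0.65 for Ighm. With the summed MK, B cell and T cell genes, r was 0.81, 0.11 and -0.69 for Ighm and -0.32, 0.22 and 0.72 for Jchain. These values describe libraries that also differ by treatment.

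Of 10 genes of class switching, none was called in any comparison. Ung, the uracil glycosylase that acts on deaminated bases during switching, was at 0.5384 to 19.73 CPM in BM and at 0 to 33.28 CPM in the spleen, and its levels overlapped between the tissues. Among 11 tested receptors for antibody, Fcmr, the receptor for IgM on B cells, was at 1.108 to 10.37 CPM in BM and at 137.5 to 504.4 CPM in the spleen and rose in both comparisons (log2 differences of 6.13 and 5.87, adjusted p = 0.00197 and 0.00176 in edgeR). Fcgr2b, the inhibitory receptor for IgG, was at 28.57 to 89.01 CPM in BM and at 187.3 to 457.7 CPM in the spleen and was called after sepsis only (log2 differences of 2.07 and 2.85, adjusted p = 0.102 and 0.0147).

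After sepsis, Fcer1g and Ms4a2, which belong to the IgE receptor of basophils and mast cells, were lower in splenic than in BM MKs (log2 differences of -2.65 and -3.84, adjusted p = 0.0148 and 0.0328 in edgeR). They were also the only 2 of the 11 tested receptors called lower in splenic MKs from saline to sepsis, against 0.0987% of all genes tested. Their log2 changes were -3.16 and -5.07 (adjusted p = 0.0307 and 0.04 in edgeR). Fcer1a and Fcgr3 had log2 changes of -4.59 and -4.44 there without being called, and 4 of the 11 had positive changes. Basophil genes moved with Fcer1g and Ms4a2. The summed level of the basophil list in splenic MKs was 2543 to 4054 CPM after saline and 36.42 to 643.6 CPM after sepsis. Of the 6 genes of that list, Cpa3 and Il4 were called lower after sepsis (log2 changes of -5.04 and -7.99, adjusted p = 0.0307 and 0.0127 in edgeR). The part of basophil RNA in the receptor levels was not tested. The surrogate light chain genes Vpreb1 and Igll1, which mark pre-B cells, were between 0 and 11.09 CPM and between 0 and 0.751 CPM over all 12 libraries.

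Markers of other cells moved with the same comparison. The summed level of the 12 B cell genes was 65.22 to 296.1 CPM in BM and 3135 to 10440 CPM in the spleen, and no library of the spleen had any of the 12 at a count of 0. Sdc1, the gene of CD138, was at 0 to 9.71 CPM in BM and at 2.393 to 119.3 CPM in the spleen, and it is named because its protein belongs to the gate. The summed level of the 10 MK genes went the other way, from 11750 to 47540 CPM in BM and from 1206 to 3521 CPM in the spleen. Summed T cell genes were at 7.652 to 103 CPM in BM and at 175.1 to 2150 CPM in the spleen. The part of B cell or plasma cell RNA in the levels of the 10 genes was not tested.

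Lists for neutrophils, macrophages, NK cells and erythroid cells had no gene called higher in splenic MKs in either comparison, and 4 of 6 basophil genes were called lower there after sepsis. Of 7 pre-B cell genes, 4 could be tested and Vpreb3, also expressed in later B cells, was called higher after saline and after sepsis. Of 8 T cell genes, 1 was called higher in splenic MKs after sepsis. Cd3e and Cd3d of the T cell receptor complex were at up to 3.479 and 33.51 CPM in BM and at up to 50.68 and 833.2 CPM in the spleen, with overlap between the tissues. The 5 NK cell genes summed to 0 to 146 CPM in BM, to 15.77 to 1099 CPM in splenic MKs after saline and to 17.93 to 121.1 CPM after sepsis. Klrb1c and Ncr1 stayed at or under 28.25 CPM in all 12 libraries, while Klrd1 and Gzma, named after their values were seen, reached 612.1 and 448.3 CPM in splenic MKs after saline. The 7 macrophage genes summed to 311.8 to 995.2 CPM in BM, to 944 to 1973 CPM in splenic MKs after saline and to 72.88 to 601.8 CPM after sepsis. Adgre1 and Csf1r stayed at or under 25.96 CPM, while Lyz2, also named after its values were seen, reached 1776 CPM in splenic MKs after saline. S100a8, a neutrophil gene, was at 20.46 to 57.85 CPM in BM after saline and at 588 to 7098 CPM after sepsis. In the spleen it was at 142 to 9679 CPM and at 19.31 to 5140 CPM. S100a9 was at 5.07 to 33.4 CPM and 180 to 3181 CPM in BM, and at 65.75 to 6465 CPM and 4.258 to 2830 CPM in the spleen. In BM all 8 neutrophil genes had positive log2 changes from saline to sepsis, and in splenic MKs 3 of 8 did. None was called between treatments in either tissue. The basophil proteases Mcpt8 and Prss34 were at 1080 to 13210 CPM and 1115 to 11190 CPM in BM and at 12.66 to 1527 CPM and 8.628 to 906.7 CPM in the spleen. The globin genes Hba-a1 and Hbb-bs stayed at or under 81.73 and 357.5 CPM.

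The genes whose levels followed each of the 5 broadly detected members most closely over the 12 libraries, outside the immunoglobulin and T cell receptor genes, were named by Pearson's r of log2 CPM. They were Bank1 (0.985), H2-Eb1 (0.976) and Cd79b (0.966) for Ighm, and Setbp1 (0.963), Zfp36l1 (0.961) and Ablim1 (0.95) for Ighd. For Igkc they were H2-Ab1 (0.99), H2-Aa (0.989) and Bend5 (0.978), and for Jchain they were Btg1 (0.97), Bcl2a1b (0.968) and Ltb (0.964). The tissues form separate clusters in these genes, and within the 6 splenic libraries r was 0.23 for Bank1 with Ighm, 0.60 for Setbp1 with Ighd, 0.72 for H2-Ab1 with Igkc and 0.93 for Btg1 with Jchain. For Igha they were D430020J02Rik (0.867), Gm26762 (0.862) and A630081D01Rik (0.86), all with group means of under 10 CPM in both tissues, and r within the splenic libraries was 0.89 for the first.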

How the data were processed

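RNA-Seq was performed on sorted MKs of 4 groups, with 3 independent replicates in each. The authors used the SMART-Seq HT kit on 300 cells per library, then Nextera XT, and deposited a table of raw counts per gene, which was not normalized. The submitters' processing notes name STAR 2.7.2b, R 3.6.1, DESeq2 1.26 and GRCm38, without their roles; the annotation, strand setting and treatment of multiply matching reads were not given in the sources used here. All 55536 identifiers were found in GENCODE M21, from which positions and exon lengths were taken.

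Fits were made with edgeR 4.0.16 under R 4.3.3. Genes passing filterByExpr (minimum count 10, 20263 genes) were scaled by TMM, 4 group means were fitted with 8 residual degrees of freedom, and quasi-likelihood F tests were adjusted by Benjamini-Hochberg with a threshold of 0.05. The SE is the size of the log2 fold change divided by the square root of F. The biological coefficient of variation was 143.2%, so the spread between libraries set the precision. Shares were divided by exon length and compared by exact permutation within strata with Python 3.11.15 and scipy 1.17.1, with adjustment over 7 quantities. No libraries of equal number deviated together (correlations of -0.057 to 0.045 over 18 pairs), and libraries were treated as unpaired. The labels do not say whether equal numbers mean the same mouse. This check therefore cannot exclude that BM and spleen came from the same mice. The tests were tried on simulated data. DESeq2 1.42.0 and limma 3.58.1 (voom) were alternatives, with other scalings, other filters, a replicate block and each library left out in turn. All 10 members are named, with the lambda genes, the leading 2 of every list (except where a gene is not reported here), the 3 genes most like 5 of the members, and the genes called in the plasma cell and antibody receptor lists. The members and lists were chosen with earlier results of these data known. Floors cover counting error only.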

Additional observations from a re-analysis of the deposited data

How the results depend on the processing

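The calls of Ighd and Igkc between tissues held under every alternative tried, those of Ighm and Jchain under all but limma-voom with sample quality weights, and the differences in the Ighm and kappa shares between tissues under every alternative tried. Groups had 3 libraries, and Ighg1 and Ighe had counts of 0 in most of them, so little can be said of either at this depth. The call of Ighg2b after sepsis and the direction of Ighg2c after saline turn on 1 library each. The BM level of Ighg3 turns on 2. The Ighg2b call was also lost with limma-voom and sample quality weights (adjusted p = 0.2207). Ighg3 after sepsis was called between tissues in all 12 fits without 1 library, but not with limma-voom (adjusted p = 0.5555). Members called, of 9, were 4, 5, 0, 0 and 0 for splenic against BM MKs after saline, the same after sepsis, sepsis against saline in BM, the same in spleen, and the interaction. Without the expression filter, where Ighe was tested too, the first was 8 and the last 3 were 2, 4 and 3. These stood among 529, 81, 187 and 130 genes called in all. With limma-voom the first 2 were 2 and 2, among 185 and 724 genes called. With DESeq2 the last 3 were 1, 1 and 1, among 208, 995 and 495 genes called. The replicate block gave 4, 6, 0, 0 and 0, the sixth being Ighg3, among 288, 401, 0, 33 and 0 genes called. Leaving out 1 library gave 4 to 7, 5 to 6, 0 to 2, 0 to 1 and 0 to 2. The cause of these shifts was not tested.

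Leaving out 1 library also turned the sign of values that were not called, with these ranges of the log2 fold change. Between tissues they were -2.23 to 9.13 for Ighg2c after saline and -5.37 to 0.18 for Igha after sepsis. Between treatments in BM they were -1.32 to 0.33 for Ighm, -0.47 to 1.21 for Ighd, -0.15 to 3.17 for Ighg2b, -1.36 to 0.81 for Ighg2c (1.07 with limma-voom) and -0.76 to 0.30 for Jchain. In splenic MKs they were -0.21 to 0.63 for Ighm, -0.85 to 4.23 for Ighg2b and -7.54 to 3.68 for Ighg2c. For the interaction they were -0.19 to 1.46 for Ighm, -1.36 to 3.79 for Ighg2b, -7.51 to 3.88 for Ighg2c and -0.00083 to 0.78 for Igkc. The difference in the Igha share between tissues ranged from -51.02 to -28.61 percentage points and that in the IgG share from -33.58 to -12.31. The log2 J chain ratio ranged from -0.54 to 0.24 and was 0.037 without division by length. Between treatments, the difference ranged from -0.75 to 13.93 percentage points for the Ighm share, from -0.51 to 0.022 for Ighd, from -0.034 to 0.0094 for Ighe and from -4.67 to 0.85 for the kappa share.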
